A study of Mus musculus with 8 samples.

Results

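The keratin genes of the developing mouse molar were taken as every protein-coding gene of the count tables whose symbol is Krt followed by a number and at most 1 letter. GENCODE release M21 on GRCm38 names 54 such symbols among the 43629 gene identifiers of the tables, and 53 of them are protein coding. Krt74, annotated as a pseudogene in the mouse, was left out. Of the 53 members, 28 encode type I (acidic) and 25 type II (basic) keratins. All type I genes lie on chromosome 11 except Krt18, which stands with the type II genes on chromosome 15. Mostly by the epithelia in which each is best known, 8 were placed among the simple, 4 among the basal, 17 among the suprabasal and 24 among the hair keratins. Krt80 and Krt222 were counted as simple, although Krt80 is linked to differentiating epithelia and no epithelium is named here for Krt222. The hair class holds the keratins of the hair shaft, the inner root sheath and the companion layer.

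Keratins are the intermediate filament proteins of epithelial cells, and a filament is built from pairs of a type I and a type II chain. Krt8 and Krt18 pair in simple epithelia, Krt5 and Krt14 in the basal layer of stratified epithelia, Krt4 and Krt13 in the upper layers of the oral lining, and Krt1 and Krt10 in the upper layers of the skin. The enamel organ, the epithelial part of the tooth germ, is of ectodermal origin and keeps Krt5 and Krt14 in its layers. The oral epithelium lies directly above the tooth germ.

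Each library held the lower first molars, left and right together, of a single embryo at E18.5. The 4 mutants (K14J26, K14J28, K14J29 and K14J30) were K14Cre;Jagged1fl/fl, and the controls were the 4 embryos J3, J5, J6 and J7. The labels give the controls as Jagged1 fl/fl, which would leave them with the floxed alleles, whereas the methods of the paper describe them as WT littermates. They are called WT here, and which description holds could not be settled. Cre is driven by a KRT14 promoter transgene, so recombination takes place in the cells that use the promoter of a keratin gene, and Jagged1, a Notch ligand, is not targeted in the mesenchyme. Which embryos shared a litter and their sex were not given in the sources used here, and the tests below measure the spread between embryos.

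Levels are CPM, counts scaled to a common library size after TMM normalization, and fold changes are K14Cre;Jagged1fl/fl over WT on the log2 scale. The standard error (SE) was worked back from edgeR's quasi-likelihood test, as the size of the log2 fold change over the square root of its F statistic. The libraries held 17327224 to 29792467 gene counts. On these totals, without the TMM scaling, 3 counts, taken as the floor of detection, correspond to between 0.101 and 0.173 CPM. Jag1 lay between 95.2 and 104 CPM in WT and between 34 and 57.1 CPM in mutant molars. Single embryos stood apart in markers outside the family. The mean log2 CPM of 5 enamel genes (Amelx, Ambn, Enam, Mmp20 and Klk4) ran from 4.73 to 6.87 in WT embryos and reached 11.8 in K14J26, then 9.79 in K14J29 and 8.17 in K14J30, with K14J28 at 6.94. The summed level of 18 genes of cornified and oral surface epithelium was 258 CPM in K14J28, against 63.1 to 107 CPM in WT and 104 to 141 CPM in the other mutant embryos. Of that list, Flg, Ivl and Sprr2d had at most 3 counts in every embryo. Genes of skeletal muscle, 8 in the list, summed to 400 CPM in J6 and 199 in J7 and to between 5.05 and 18.9 in the other embryos. The mean log2 CPM of 12 epithelial genes lay between 5.42 and 5.56 in WT and between 5.36 and 5.5 in mutant molars, and their summed level between 1140 and 1293 CPM and between 1188 and 1571 CPM. Members went both ways, with the log2 fold change of Ap1m2 called at 0.29 and those of Cdh1 (0.47) and Epcam (-0.51) not called. In whole molars, fewer cells of a type and less RNA per cell cannot be told apart.

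Within the family, levels ran from 4099 CPM for Krt5 in K14J26 down to genes with no read at all. After the filter of at least 10 counts in 2 embryos of a group, 30 of the 53 keratin genes were tested, and 23 were not. Of these 23, 17 belong to the hair class. Krt76 missed the filter because a single embryo held its reads, and the other 22 had at most 18 counts in any embryo. Krt2, a keratin of the upper epidermis, and Krt40, a hair keratin, had 0 counts in all 8 embryos. That allows up to 0.173 CPM in the shallowest library, on its total without the TMM scaling. A total of 31 members had reads in every embryo, and 29 reached a mean of 1 CPM in either group or passed the test, and these are given by name below.

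**Figure D1:**
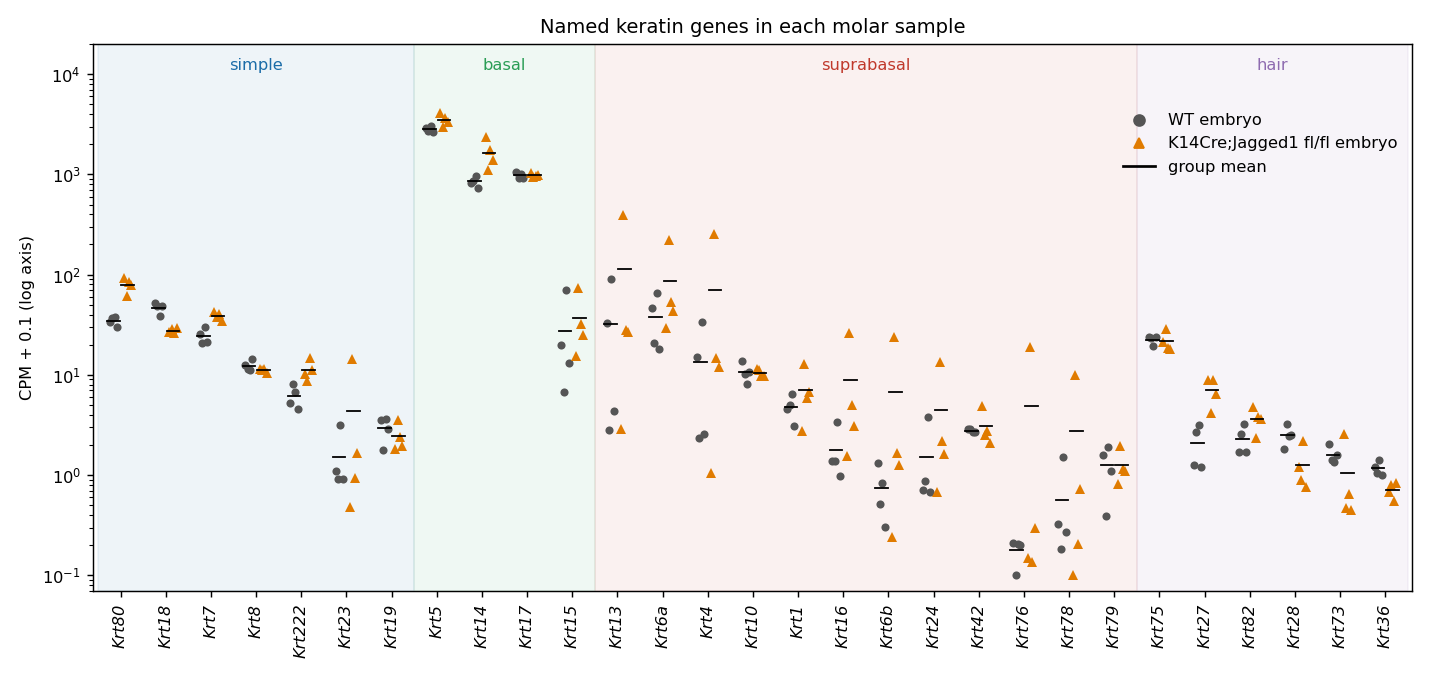
CPM plus 0.1 on a log axis for the 29 named keratin genes in each embryo, by class and by mean level, with WT embryos as circles, K14Cre;Jagged1fl/fl embryos as triangles and group means as bars. Krt5, Krt14 and Krt17 lie far above all other members, the groups separate for Krt80, Krt18, Krt7, Krt222, Krt14, Krt27 and Krt36, and 1 mutant embryo stands far above the rest for many suprabasal genes.

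With the threshold of an adjusted p under 0.05 in edgeR's quasi-likelihood test (Benjamini-Hochberg over 17129 genes), 5 of the 30 tested keratins rose in K14Cre;Jagged1fl/fl molars (Krt80, Krt14, Krt7, Krt27 and Krt222) and 1 fell (Krt18). Over all genes tested, 9.52% rose and 6.61% fell, or 16.1% in either direction. With the criteria of p at or under 0.05 before adjustment and a log2 change of 0.5 or more in size, 8 keratins were higher (the former 5 with Krt6b, Krt82 and Krt16) and 3 lower (Krt18, Krt28 and Krt36). Of all genes tested, 8.33% were higher and 5.85% lower, 14.2% together. All 4 mutant values lay above all 4 WT values for 5 of the tested keratins and below them for 2 (Krt18 and Krt36), where 12.6% and 11.6% of all genes tested did so (24.2% together). The median log2 fold change of the 30 tested keratins was 0.56, with 22 values above 0, and that of all genes tested was 0.0058. Those values depend on K14J28 and J6. Without K14J28 the median of the 29 keratins that could be fitted was 0.02, with 15 values above 0, against -0.0082 over all genes. It was 0.77 without J6. Without J6 and K14J28 together it was 0.41, with 20 values above 0, against -0.0047 over all genes. By class, the median was 1.44 over 12 suprabasal, 0.67 over 7 simple, 0.37 over 4 basal and -0.05 over 7 hair keratins. Without K14J28 the class medians were 0.04 over 11 suprabasal, -0.17 over the simple, 0.20 over the basal and -0.23 over the hair keratins. Without J6 and K14J28 together they were 0.53, 0.10, 0.64 and -0.29. In the fits without any other single embryo they were 1.17 to 2.17, 0.59 to 0.78, 0.18 (without J5) to 0.68 (without J6) and -0.12 to 0.03. No suprabasal keratin was called, and the level of that class depended on K14J28 and J6. The log2 ratio of its summed CPM was 1.57 over all embryos, -0.16 without K14J28 and 2.17 without J6.

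**Figure D2:**
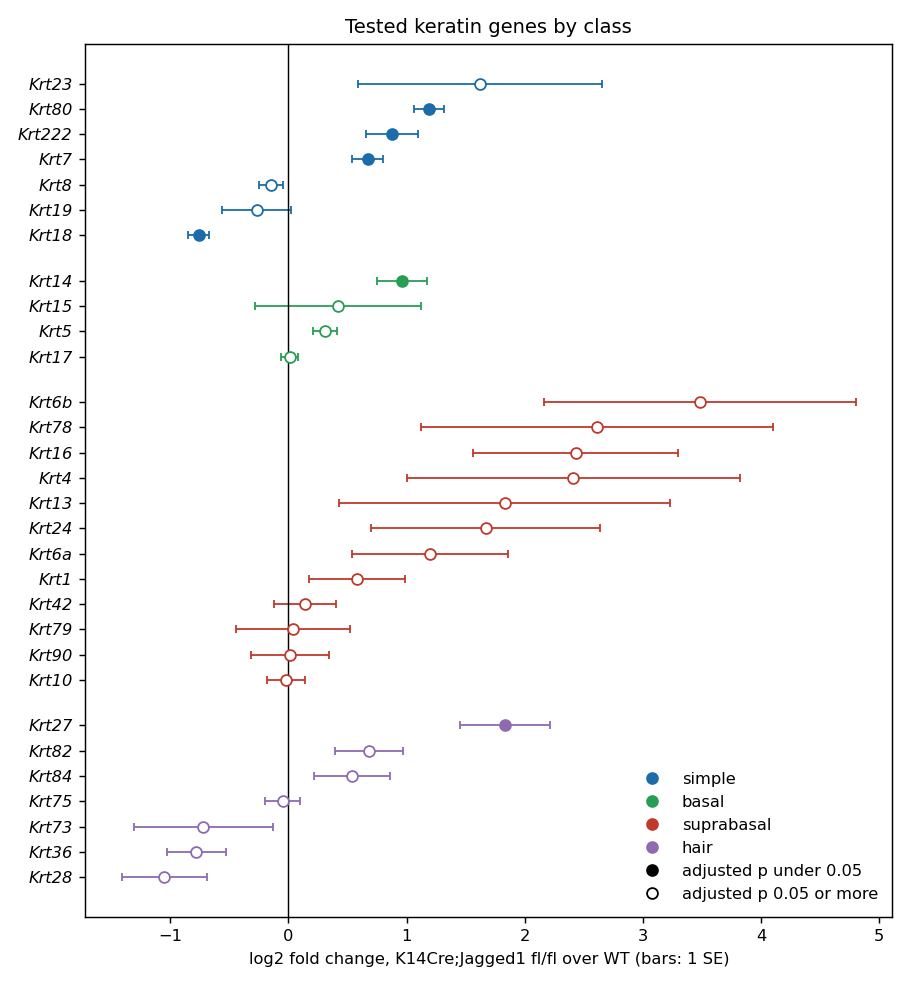
Log2 fold change of K14Cre;Jagged1fl/fl over WT for the 30 tested keratin genes with bars of 1 SE, by class, filled where the adjusted p of edgeR's quasi-likelihood test was under 0.05. The 6 filled points have SEs of at most 0.38, and the suprabasal genes with the largest fold changes, such as Krt6b at 3.48, have SEs of up to 1.49.

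Among the promoters, those of 7 members are shown: Krt5, the most abundant keratin, Krt27 and Krt18, the members with the largest called rise and fall, and Krt13, Krt24, Krt76 and Krt78, which were high together in 1 mutant embryo. Each line holds the bases just before the RefSeq start of the gene, read 5′ to 3′ on its own strand (RefSeq, GRCm38.p6). Every window is 100 bases long except that of Krt18, which stops after 64 bases where a GENCODE exon of the gene begins. Capitals mark TATAAA and the core of an AP-2 site, GCCNNNGGC, and, within the last 40 bases before the start, also ATAAA.
Krt5 chr15:101712906-101713005, minus strand: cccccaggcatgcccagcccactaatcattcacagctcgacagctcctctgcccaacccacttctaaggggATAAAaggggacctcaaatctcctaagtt
Krt13 chr11:100121567-100121666, minus strand: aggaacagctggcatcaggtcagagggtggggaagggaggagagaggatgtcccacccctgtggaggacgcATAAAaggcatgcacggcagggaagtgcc
Krt24 chr11:99285263-99285362, minus strand: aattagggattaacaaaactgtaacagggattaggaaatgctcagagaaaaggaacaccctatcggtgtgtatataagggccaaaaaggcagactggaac
Krt76 chr15:101892921-101893020, minus strand: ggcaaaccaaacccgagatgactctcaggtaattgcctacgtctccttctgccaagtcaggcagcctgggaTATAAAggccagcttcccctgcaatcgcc
Krt78 chr15:101954288-101954387, minus strand: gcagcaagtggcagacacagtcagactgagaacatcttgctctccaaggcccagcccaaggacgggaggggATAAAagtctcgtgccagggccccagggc
Krt27 chr11:99351119-99351218, minus strand: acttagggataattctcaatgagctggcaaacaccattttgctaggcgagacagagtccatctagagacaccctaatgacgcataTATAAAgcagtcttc
Krt18 chr15:102028116-102028179, plus strand: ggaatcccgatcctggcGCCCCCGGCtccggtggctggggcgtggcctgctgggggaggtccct

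The promoter table held 36 of the keratin genes, and for 31 of them a RefSeq start lay within 50 bases of a GENCODE start. Krt14 and Krt8 were not among the 31. In the 250 bases before the start, on either strand, TATAAA occurred in 15 of the 31 keratin promoters and in 12.4% of all 32851 promoter entries. ATAAA within the last 40 bases on the gene's own strand, a shorter form chosen after the windows had been read and contained in TATAAA, occurred in 21 of the 31 and in 5.5% of all entries. The AP-2 core GCCNNNGGC was found at Krt18, Krt7, Krt9 and Krt90 (13.7% of all entries). The AP-1 site TGANTCA was found only at Krt13 among the 31 (6.75% of all entries), and the GC box GGGCGG at Krt7 and Krt75 (32.7%). These are matches of letters and not measured sites.

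The basal keratins made up nearly all of the keratin RNA. Krt5, Krt14 and Krt17 together held 94.1% ± 1.73 (SD, n = 4) of the summed CPM of all keratins in WT molars, and 96.2%, 94.5%, 94.5% and 79.9% in K14J26, K14J29, K14J30 and K14J28. Keratins took between 0.468% and 0.562% of all counts in WT embryos and between 0.612% and 0.658% in mutants. Of the basal class, Krt14 rose, Krt17 had the same mean level in both groups, and Krt5 lay between them and missed the threshold.

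Krt14 (ENSMUSG00000045545, chr11:100203162-100207548), the type I partner of Krt5 in basal cells, stood at 825 CPM in J3, 867 in J5, 974 in J6 and 736 in J7. Mutant levels were 2376 CPM in K14J26, 1099 in K14J28, 1742 in K14J29 and 1380 in K14J30. The groups did not overlap, although K14J28 lay only a little above the highest WT embryo. The log2 fold change was 0.96 (SE 0.21) with an adjusted p of 0.0217 in edgeR's quasi-likelihood test, and an exact two-sided permutation test over the 4 against 4 embryos gave 0.0286, the smallest p this design allows. Leaving out J3, J5, J7 or K14J29 raised the adjusted p of the edgeR test to 0.0654, 0.0589, 0.0725 and 0.0677 with log2 fold changes of 0.88 to 0.95, in fits where at most 4.93% of all genes were called. The mutant embryos stood in the same order in Krt14 as in the enamel gene score, K14J26 first, then K14J29, K14J30 and K14J28. That order of mutants also held for Krt5, Krt80, Krt27 and Krt82, and not for Krt7, Krt222 or Krt18. In WT embryos too, Krt14 and Krt27 followed the enamel gene score, in the order J6, J5, J3 and J7. With that score as covariate the log2 fold change of Krt14 was 0.16 and its adjusted p 0.373 by the edgeR test, the highest p over the alternatives, which went down to 0.000178. The score differs between the groups itself, so that genotype and enamel gene level cannot be told apart by this fit.

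Krt5 (ENSMUSG00000061527, chr15:101707070-101712898), the type II partner, had 2935, 2740, 3013 and 2648 CPM in J3, J5, J6 and J7. The mutants K14J26, K14J28, K14J29 and K14J30 had 4099, 2980, 3664 and 3328 CPM, so that K14J28 lay within the WT range and the others above it. Its log2 fold change was 0.31 (SE 0.10), and the adjusted p of 0.065 by edgeR's test missed the threshold. DESeq2 gave an adjusted p of 0.0272, and without K14J28 the edgeR fit gave 0.38 and 0.0162. With the enamel gene score as covariate the value was 0.01 with an adjusted p of 0.957, the highest over the alternatives. The ratio of Krt14 to Krt5, in which gene length cancels when embryos are compared, was 0.300 ± 0.0236 (SD, n = 4) in WT and 0.460 ± 0.0913 (n = 4) in mutant molars, with the lowest mutant at 0.369 and the highest WT embryo at 0.323.

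Krt17 (chr11:100256217-100261029), a type I keratin of ectodermal appendages and of activated keratinocytes, had 1067, 921, 1002 and 928 CPM in J3, J5, J6 and J7. Its mutant values of 1039, 952, 958 and 986 CPM in K14J26, K14J28, K14J29 and K14J30 lay within the WT range. Its change was 0.01 on the log2 scale (SE 0.07, adjusted p 0.958 by edgeR's test), and its sign changed with the scaling of the libraries, from -0.10 by library size alone. Per kilobase of the principal transcript, a scale on which genes can be compared, Krt5 came first in all 8 embryos. Krt17, at 594 to 688 CPM per kb, lay above Krt14, at 433 to 574, in each WT embryo. In the mutants the order was the opposite in each embryo, with Krt17 at 614 to 670 and Krt14 at 647 to 1399 CPM per kb. In K14J28 these levels were close, 614 for Krt17 and 647 for Krt14.

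**Figure D3:**
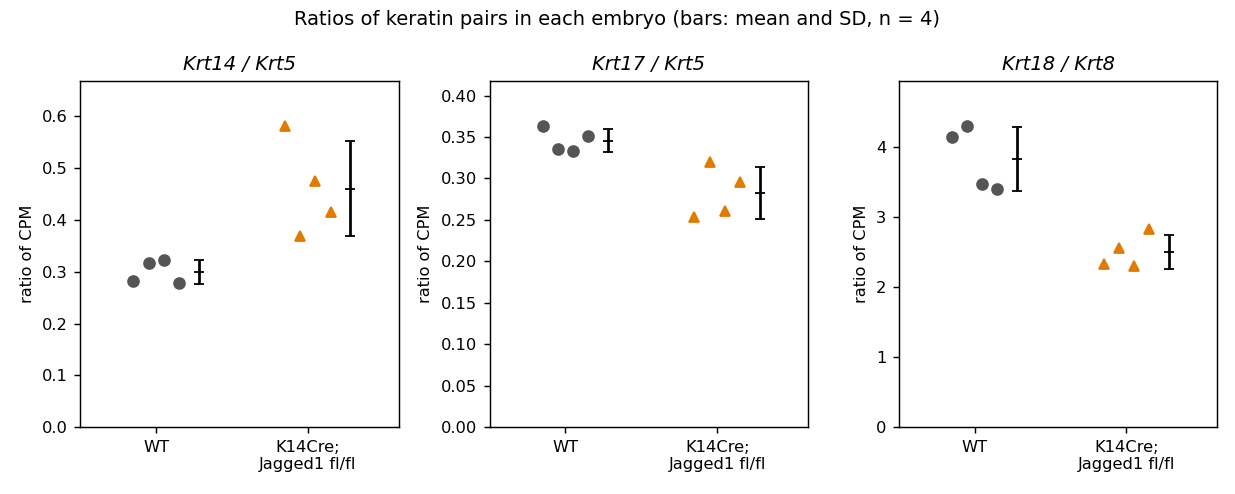
Ratios of CPM of Krt14 to Krt5, Krt17 to Krt5 and Krt18 to Krt8 in each embryo, with the mean and SD of 4 WT and 4 K14Cre;Jagged1fl/fl embryos beside the points and axes that start at 0. The groups are apart in all 3 panels, upwards for Krt14 over Krt5 and downwards for the other 2 ratios.

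Krt15 (chr11:100131758-100135928), a basal keratin of stratified epithelia with no single partner, varied within both groups. It had 19.9, 6.64, 70.4 and 13.1 CPM in J3, J5, J6 and J7, and 15.2, 74.0, 31.8 and 24.8 CPM in K14J26, K14J28, K14J29 and K14J30. The highest values were those of J6 and K14J28, which also led the oral keratins below. On the log2 scale the change was 0.42 (SE 0.70, adjusted p 0.703 by edgeR's test). It became -0.19 without K14J28, 1.47 without J6 and 0.86 without J6 and K14J28 together.

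The class counted as simple gave 4 of the 6 calls, 3 upwards and 1 downwards, on levels far below those of the basal class. Krt80 and Krt222 were among the rises, so these calls are not read as a change of simple epithelium. Krt18 (ENSMUSG00000023043, chr15:102028180-102032027), the type I keratin of simple epithelia, had 51.6, 48.6, 38.9 and 48.3 CPM in J3, J5, J6 and J7, and 26.5, 28.7, 25.9 and 29.3 CPM in K14J26, K14J28, K14J29 and K14J30. Every mutant lay below every WT embryo, and the mutants lay closer to each other than the WT embryos did. Krt18 fell by 0.76 on the log2 scale (SE 0.09, adjusted p 0.00528 by edgeR's test, exact permutation p 0.0286). It was called in all 8 fits that left out an embryo, with values from -0.85 to -0.71. With the enamel gene score as covariate the value was -0.57 (adjusted p 0.0504 by edgeR's test), and with the epithelial score -0.73 (adjusted p 0.0945), the highest over the alternatives, which reached down to 6.42e-10. Under the epithelial covariate only 0.0117% of all genes were called.

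Krt8 (chr15:101996698-102004482), the type II partner that stands beside Krt18 on the chromosome, had 12.5, 11.3, 11.2 and 14.2 CPM in J3, J5, J6 and J7 and 11.3, 11.2, 11.3 and 10.3 CPM in K14J26, K14J28, K14J29 and K14J30. On the log2 scale the change was -0.15 (SE 0.10, adjusted p 0.311 by edgeR's test), and the groups overlapped. The ratio of Krt18 to Krt8 was 3.83 ± 0.457 (SD, n = 4) in WT and 2.51 ± 0.247 (n = 4) in mutant molars, with the lowest WT ratio at 3.4 and the highest mutant ratio at 2.83. Of the 120-base windows of the Krt8 exons, 12.8% also occur in the pseudogene Krt8-ps, and its count may depend on how reads with several matches were treated. Krt18 had no such window.

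Krt80 (ENSMUSG00000037185, chr15:101347444-101370162), a type II keratin linked to cell junctions of differentiating epithelia, had 33.8, 37.2, 37.6 and 29.8 CPM in J3, J5, J6 and J7. Levels of 91.8, 61.0, 83.8 and 78.7 CPM in K14J26, K14J28, K14J29 and K14J30 were all above the WT embryos. It rose by 1.19 (SE 0.13, adjusted p 0.00485 by edgeR's test, exact permutation p 0.0286), with 1.11 to 1.29 and a call in each of the 8 fits without 1 embryo. With the enamel gene score as covariate the value was 0.78 and the adjusted p 0.0179 by the same test, and the highest p over the alternatives was 0.0877, with the epithelial score. A gene on the opposite strand, Gm35853, overlaps Krt80, the library kit does not mark strand, and 1.19% of the 120-base windows of the Krt80 transcripts also occur in Gm35853.

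Krt7 (ENSMUSG00000023039, chr15:101411043-101430313), a type II keratin of simple and ductal epithelia and the neighbour of Krt80 at the end of the type II cluster, had 25.6, 20.5, 29.6 and 21 CPM in J3, J5, J6 and J7. The values of 42.1, 37.3, 40.7 and 34.0 CPM in K14J26, K14J28, K14J29 and K14J30 lay above all of these. It rose by 0.67 (SE 0.13, adjusted p 0.0149 by edgeR's test, exact permutation p 0.0286). Without J7 or K14J29 the adjusted p of that test was 0.0521 and 0.0541, with log2 fold changes of 0.60 and 0.65. Those fits called 3.16% and 2.48% of all genes. With the enamel gene score the adjusted p was 0.151 at 0.46, the highest p over the alternatives. Gm671 overlaps Krt7 on the opposite strand, but none of the 120-base windows of the Krt7 transcripts occurred in another gene. Of 8 markers of salivary gland epithelium, in which Krt7, Krt8 and Krt18 are known, Dcpp1, Dcpp2, Prol1 and Smgc had at most 3 counts in any embryo. Bhlha15, the single member of that list with enough counts for a test, rose by 1.19 (adjusted p 0.0179 by edgeR's test). The list summed to 1.19 to 2.06 CPM in WT and 2.6 to 3.88 CPM in mutant molars, and most of that sum was Bhlha15 itself. Mean levels in WT and mutant molars were 0.227 and 0.131 CPM for Aqp5 and 0.123 and 0.117 CPM for Muc5b, so the sum is not read as a rise of the list.

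Krt222 (ENSMUSG00000035849, chr11:99232761-99244085), a short type I keratin at the end of the type I cluster, had 5.09, 7.96, 6.69 and 4.46 CPM in J3, J5, J6 and J7 and 10.1, 8.58, 14.8 and 11 CPM in K14J26, K14J28, K14J29 and K14J30. The groups did not overlap, with K14J28 nearest to the WT embryos. It rose by 0.88 (SE 0.22, adjusted p 0.0303 by edgeR's test, exact permutation p 0.0286). The call held in 3 of the 8 fits without 1 embryo, the fewest of the 6. Without J3, J6, J7, K14J29 or K14J30 the adjusted p of the edgeR test was 0.0849, 0.0562, 0.0854, 0.0841 and 0.0533. The log2 fold changes in those fits were 0.81, 0.93, 0.75, 0.71 and 0.89, and 3.86%, 8.25%, 3.16%, 2.48% and 12.7% of all genes were called. With library size alone the adjusted p was 0.0525, and the highest over the alternatives was 0.374, with the enamel gene score at 0.50.

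The remaining simple keratins were low and not called. Krt19, a type I keratin of simple and of odontogenic epithelia, had 3.43, 1.69, 3.53 and 2.77 CPM in J3, J5, J6 and J7 and 1.73, 3.46, 2.29 and 1.86 CPM in K14J26, K14J28, K14J29 and K14J30 (log2 fold change -0.27, SE 0.29). The groups overlapped, and J6 and K14J28 were the highest of their groups, as in Krt13 and Krt15, which stand next to Krt19 on chromosome 11. Krt23 had 0.997, 0.825, 3.06 and 0.811 CPM in J3, J5, J6 and J7 and 0.385, 14.2, 0.832 and 1.55 CPM in K14J26, K14J28, K14J29 and K14J30. Here too J6 and K14J28 led their groups. The log2 fold change of 1.62 (SE 1.03) became -0.58 without K14J28 and 0.10 without J6 and K14J28 together.

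The suprabasal keratins of the oral lining differed between single embryos within both groups. Of the 12 tested members none passed the adjusted threshold of edgeR's test, 2 had an unadjusted p of at most 0.05 (Krt16 and Krt6b), and DESeq2 called Krt16 with an adjusted p of 0.0489. K14J28 was the highest mutant embryo for 10 of the 12 named suprabasal genes, and J6 was the highest WT embryo for 8. K14J26 was the lowest mutant for 9. The 8 genes Krt4, Krt13, Krt6a, Krt6b, Krt16, Krt24, Krt76 and Krt78 summed to 962 CPM in K14J28, 198 in J6, 104 in K14J29, 98.0 in J3, 87.9 in K14J30, 35.2 in K14J26, 28.2 in J5 and 26.8 in J7. These 8 were chosen after their values had been seen, and the order mixes both groups. The summed cornified epithelium list was highest in K14J28 and, within WT, in J6. K14J26, with low oral keratins, had a sum of 141 CPM, above that of J6 at 107 CPM. The mean log2 CPM of the list, used as the covariate below, ranked K14J26 differently. It was 1.737 in K14J28, 0.197 in J6 and lowest of all embryos in K14J26, at -0.949. The part of this list in the levels of the oral keratins was not tested further than by that covariate.

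Krt13 (ENSMUSG00000044041, chr11:100117327-100121566), the type I keratin of the oral lining, had 32.5, 2.72, 89.7 and 4.22 CPM in J3, J5, J6 and J7. Its mutant levels were 2.79 CPM in K14J26, 397 in K14J28, 27.9 in K14J29 and 26.6 in K14J30. Both groups thus held embryos under 5 CPM and embryos over 25 CPM. Its log2 fold change was 1.83 (SE 1.40, adjusted p 0.377 by edgeR's test). It was -0.74 without K14J28, 3.15 without J6 and 0.58 without J6 and K14J28 together.

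Krt4 (ENSMUSG00000059668, chr15:101918535-101924735), the type II partner of Krt13, had 15.1, 2.27, 33.9 and 2.5 CPM in J3, J5, J6 and J7 and 0.961, 252, 14.7 and 12.0 CPM in K14J26, K14J28, K14J29 and K14J30. The 8 embryos stood in nearly the same order as for Krt13, with K14J28 and J6 first. Its log2 fold change was 2.41 (SE 1.41, adjusted p 0.251 by edgeR's test). It became -0.51 without K14J28, 3.46 without J6 and 0.53 without J6 and K14J28 together. The ratio of Krt13 to Krt4 stayed between 1.2 and 2.9 in all 8 embryos, while Krt13 ranged from 2.72 to 397 CPM and Krt4 from 0.961 to 252 CPM.

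Krt6a, Krt6b and Krt16 are keratins of oral and of stressed or proliferating stratified epithelium, and Krt16 is the type I partner of the Krt6 chains. Krt6a had 46.9, 20.6, 65.5 and 18.1 CPM in J3, J5, J6 and J7 and 29.3, 221, 53.0 and 42.8 CPM in K14J26, K14J28, K14J29 and K14J30 (log2 fold change 1.2, SE 0.66). Krt6b had 1.22, 0.412, 0.726 and 0.203 CPM in J3, J5, J6 and J7 and 0.144, 23.9, 1.56 and 1.16 CPM in K14J26, K14J28, K14J29 and K14J30 (3.48, SE 1.32). Krt16 had 1.27, 1.28, 3.32 and 0.878 CPM in J3, J5, J6 and J7 and 1.44, 26.1, 4.89 and 2.99 CPM in K14J26, K14J28, K14J29 and K14J30 (2.43, SE 0.87). K14J28 was the highest embryo for all 3 genes, and the groups overlapped for each. Without K14J28 the log2 fold changes were 0.15, 0.68 and 0.91, and without J6 and K14J28 together 0.56, 0.78 and 1.46. Without K14J26 the adjusted p of edgeR's test was 0.0350 for Krt6b and 0.0306 for Krt16, and over the alternatives it ran from 0.0198 to 0.522 and from 0.0189 to 0.212. Sequence is shared among these genes, since 36.2% of the 120-base windows of Krt6a, 25.7% of those of Krt6b and 21.1% of those of Krt16 occur in another gene, so their counts may depend on the treatment of reads with several matches. Most of the shared windows join Krt6a and Krt6b (22.5% of the windows of Krt6a and 25.7% of those of Krt6b), while those of Krt16 lie mainly in Gm11597 (20.1%) and less in Krt14 (1.04%).

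Krt24, Krt78 and Krt76, keratins of stratified and oral epithelia, were close to 0 outside a few embryos. Krt24 had 0.609, 0.783, 3.68 and 0.574 CPM in J3, J5, J6 and J7 and 0.577, 13.2, 2.11 and 1.51 CPM in K14J26, K14J28, K14J29 and K14J30. Krt78 had 0.222, 0.0825, 1.40 and 0.169 CPM in J3, J5, J6 and J7 and 0, 9.98, 0.104 and 0.621 CPM in K14J26, K14J28, K14J29 and K14J30. K14J28 and J6 were again the highest of their groups. Krt76, a keratin of the palate and gingiva, had 572 counts (19 CPM) in K14J28 and at most 5 counts in any other embryo, and was not tested. The log2 fold changes were 1.67 (SE 0.97) for Krt24 and 2.61 (SE 1.49) for Krt78. That of Krt24 became 0.04 without K14J28 and 1.11 without J6 and K14J28 together. Krt78 no longer passed the count filter without K14J28.

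**Figure D4:**
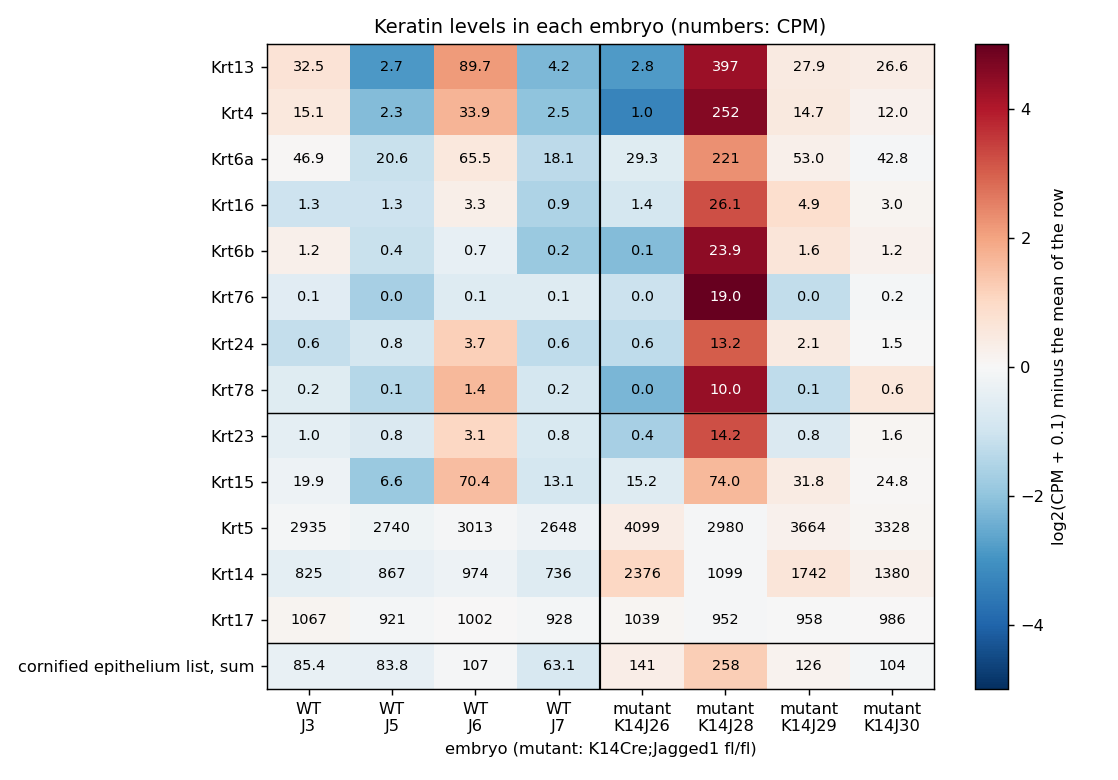
Levels in each embryo of 8 oral suprabasal keratins, of Krt23 and 4 basal keratins, and of the summed cornified epithelium list, with CPM as numbers and log2(CPM + 0.1) minus the row mean as colour. K14J28 is the highest column for all 8 oral keratins (Krt13 at 397 CPM), J6 is the highest WT column for 6 of them (Krt13 at 89.7 CPM), and Krt17 is nearly level across the row.

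With the cornified epithelium score as a covariate, an alternative added after the data had been seen, the log2 fold change was -0.09 for Krt13, 0.11 for Krt4 and 0.48 for Krt6a, and Krt16 passed edgeR's test at 1.28 with an adjusted p of 0.0189. The 6 calls stood under that covariate, with Krt14 at 1.0, Krt80 at 1.23, Krt27 at 1.86, Krt222 at 0.92, Krt7 at 0.68 and Krt18 at -0.77. They also stood without J6 and K14J28 together, where Krt14 was at 1.17 and Krt18 at -0.87. Krt13, Krt4, Krt6a and Krt16 were at 0.58, 0.53, 0.56 and 1.46 in that fit, and none of them was called. Both fits called more of all genes than the 16.1% reported, 28.2% with the covariate and 3112 of 16845 without the 2 embryos (2764 of 17129 as reported).

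The keratins of the upper epidermis did not share this pattern to the same degree. Krt10 had 13.7, 10, 7.99 and 10.6 CPM in J3, J5, J6 and J7 and 11.4, 11, 9.67 and 9.66 CPM in K14J26, K14J28, K14J29 and K14J30 (log2 fold change -0.02, SE 0.16). No embryo stood apart in Krt10, and the groups overlapped. Krt1, its type II partner, had 4.43, 4.95, 6.33 and 2.97 CPM in J3, J5, J6 and J7 and 2.64, 12.6, 5.79 and 6.64 CPM in K14J26, K14J28, K14J29 and K14J30 (0.58, SE 0.41). Its log2 fold change was 0.12 without K14J28 and 0.30 without J6 and K14J28 together. K14J28 was the highest embryo for Krt1, and the other 7 lay between 2.64 and 6.64 CPM. Krt9, of palm and sole skin, Krt12, of the cornea, and Krt77 had at most 9 counts in any embryo. Krt42 lay between 1.98 and 4.81 CPM and Krt79, a keratin of hair canal and gland ducts, between 0.289 and 1.83 CPM, with log2 fold changes of 0.14 (SE 0.26) and 0.04 (SE 0.48).

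Of the 24 hair keratins, 6 of the hair shaft, inner root sheath and companion layer were named for their level (Krt27, Krt28, Krt36, Krt73, Krt75 and Krt82), and most others were near 0. The hair shaft keratins Krt31, Krt32, Krt33a, Krt33b, Krt34, Krt35, Krt39, Krt81, Krt83 and Krt86 had at most 6 counts in any embryo. Not all others were so low. Krt84 had 5 to 23 counts and was not called (log2 fold change 0.54, SE 0.32, adjusted p 0.255 by edgeR's test). Krt72 and Krt87, not tested, had at most 18 and 12 counts. Of 10 hair follicle markers, 4 keratin-associated protein genes (Krtap3-1, Krtap8-1, Krtap11-1 and Krtap13) had at most 3 counts in every embryo, 3 of them 0 in all. Among the 6 tested markers of that list, 1 rose and 2 fell, where 9.52% and 6.61% of all genes tested did so, and nothing particular to the list is read from these counts. Padi3, an enzyme that modifies hair proteins, rose by 1.27 (adjusted p 0.0407) and Crym fell by 1.85 (adjusted p 0.00977) in edgeR's test. The remaining call was Msx1, a factor of the dental mesenchyme as well, which fell by 0.26, and Dlx3, the most abundant of the list, had 261 ± 16.3 CPM in WT and 297 ± 49.1 CPM in mutant molars and was not called.

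Krt27 (ENSMUSG00000017588, chr11:99345565-99351104), a type I keratin of the inner root sheath, had 1.16, 2.60, 3.06 and 1.11 CPM in J3, J5, J6 and J7. The levels were 8.85, 4.09, 8.80 and 6.36 CPM in K14J26, K14J28, K14J29 and K14J30. All mutants lay above all WT embryos, and behind these levels stand 21 to 63 counts in WT and 123 to 254 counts in mutant embryos. It rose by 1.83 (SE 0.38, adjusted p 0.0181 by edgeR's test, exact permutation p 0.0286), the largest fold change of the 6 calls. Without J3, J7 or K14J29 the adjusted p of the edgeR test was 0.0549, 0.0572 and 0.0607, with values of 1.61 to 1.70. With the enamel gene score the value was 0.78 and the adjusted p 0.232, and the highest p over the alternatives was 0.238. Its neighbours Krt25 and Krt26, also of the inner root sheath, had at most 3 counts in any embryo.

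Krt28 (chr11:99364872-99374903), the next inner root sheath gene, differed in the opposite direction. It had 1.72, 3.17, 2.33 and 2.43 CPM in J3, J5, J6 and J7 and 1.11, 0.799, 2.08 and 0.660 CPM in K14J26, K14J28, K14J29 and K14J30. K14J29 lay within the WT range, and the log2 fold change of -1.05 (SE 0.36) had an adjusted p of 0.0738 by edgeR's test. Without K14J29 it was -1.51 with 0.0433, DESeq2 gave 0.0305, and the p ran from 0.0305 to 0.213 over the alternatives. Krt71, the type II keratin with which inner root sheath chains are known to pair, had at most 8 counts in any embryo.

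Krt36 (chr11:100102007-100105626), a type I hair keratin, had 1.11, 0.948, 1.30 and 0.912 CPM in J3, J5, J6 and J7 and 0.577, 0.699, 0.451 and 0.737 CPM in K14J26, K14J28, K14J29 and K14J30. Every mutant lay below every WT embryo, on 12 to 27 counts per embryo. The log2 fold change was -0.78 (SE 0.25) with an adjusted p of 0.0598 by edgeR's test and an exact permutation p of 0.0286. The adjusted p was 0.0465 with the stricter count filter, and it ran from 0.0375 to 0.431 over the alternatives.

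Krt75 (chr15:101563345-101573904), a type II keratin of the companion layer that is also known from developing enamel, was the most abundant of the hair class per kilobase. It had 23.5, 23.1, 19.3 and 23.5 CPM in J3, J5, J6 and J7 and 21.3, 28.8, 18.4 and 17.9 CPM in K14J26, K14J28, K14J29 and K14J30. The mutants lay on both sides of the WT embryos, and the log2 fold change was -0.05 (SE 0.15, adjusted p 0.847 by edgeR's test). It did not follow the order of the mutants in the enamel gene score.

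Krt82, a hair cuticle keratin, had 1.61, 2.47, 3.11 and 1.62 CPM in J3, J5, J6 and J7 and 4.71, 2.23, 3.71 and 3.53 CPM in K14J26, K14J28, K14J29 and K14J30 (log2 fold change 0.68, SE 0.29, adjusted p 0.126 by edgeR's test). K14J28 lay within the WT range, and without it the value was 0.85 with an adjusted p of 0.043, where the alternatives ran from 0.0255 to 0.777. Krt73, of the inner root sheath, had 1.94, 1.32, 1.25 and 1.49 CPM in J3, J5, J6 and J7 and 2.5, 0.366, 0.555 and 0.349 CPM in K14J26, K14J28, K14J29 and K14J30. K14J26 was the highest of all embryos and the other 3 mutants were the lowest. The log2 fold change of Krt73 was -0.72 (SE 0.59, adjusted p 0.416 by edgeR's test), and without K14J26 it was -1.80 with an adjusted p of 0.00667, the lowest over the alternatives, which reached 0.65.

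**Figure D5:**
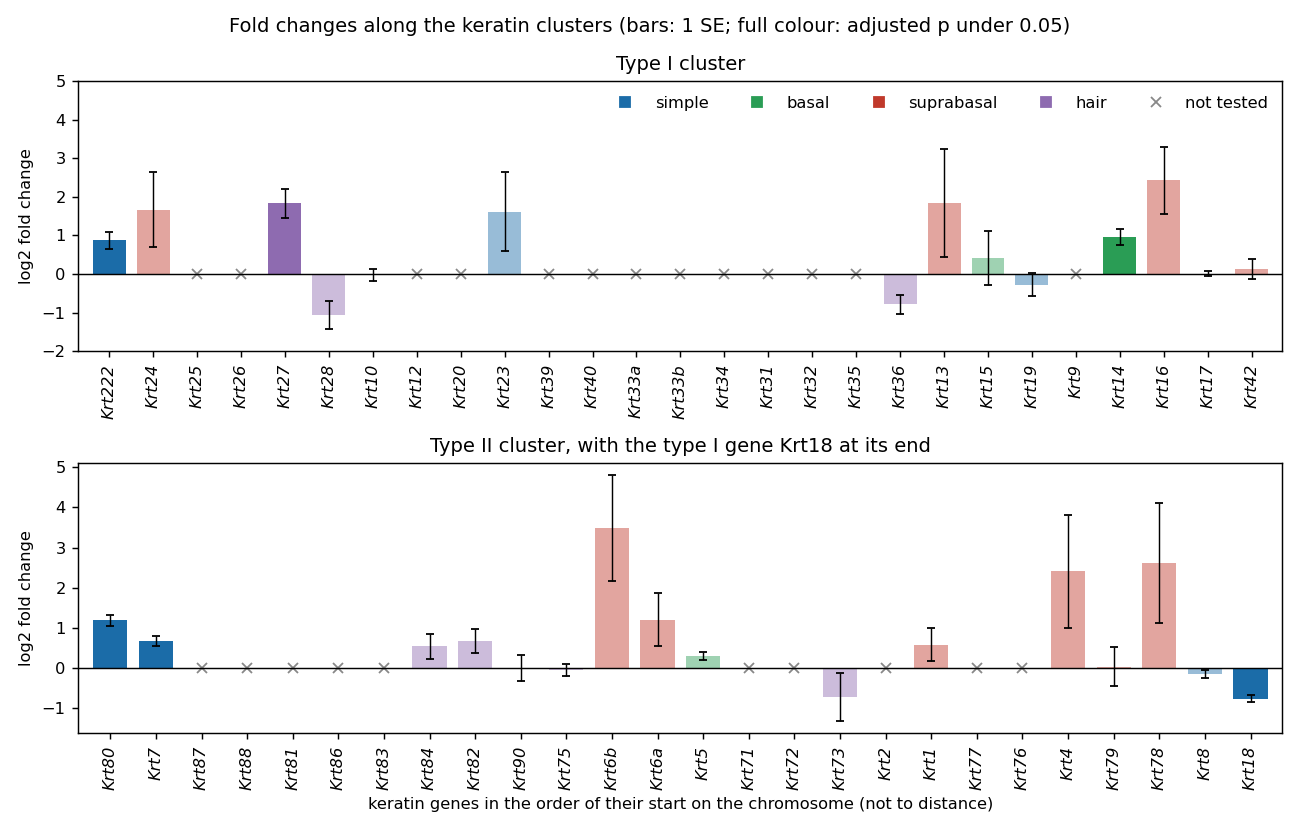
Log2 fold changes with bars of 1 SE of the keratin genes in their order along the type I cluster (upper panel) and the type II cluster with Krt18 (lower panel), coloured by class, in full colour where the adjusted p was under 0.05, and with crosses for the genes not tested. Neighbours differ in direction, as Krt27 at 1.83 and Krt28 at -1.05, and in spread, as Krt14 and Krt16 with SEs of 0.21 and 0.87.

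Summed by class, the simple keratins had 128 ± 4.98 CPM in WT and 174 ± 9.59 CPM in mutant molars (mean ± SD, n = 4 each), and the groups did not overlap. Without Krt80 the sums were 93.7 ± 3.76 and 95 ± 6.6 CPM and the groups overlapped, so that the higher sum rests on Krt80, while Krt7 rose and Krt18 fell by fewer CPM. The basal class had 4691 ± 326 and 6187 ± 1038 CPM, again without overlap, since the lowest mutant, K14J28 at 5105 CPM, exceeded the highest WT embryo, J6, at 5059 CPM, by less than the SD of either group. The suprabasal class had 108 ± 81.7 and 320 ± 449 CPM. The log2 ratio of the means went from 1.57 to -0.16 without K14J28 and to 2.17 without J6. The hair class had 33.5 ± 1.38 and 36.5 ± 4.13 CPM, with overlap. Type I chains summed to between 0.635 and 0.686 of the type II chains in WT and to between 0.702 and 0.812 in mutant embryos.

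The proteins to which keratin filaments are anchored, and the factors known to act on keratin genes, were read in lists chosen for their roles. Of 17 tested genes of desmosomes, hemidesmosomes and filament linkers, 3 rose and 1 fell in edgeR's test, and the median log2 fold change was 0.26. Of all genes tested, 9.52% rose and 6.61% fell, and nothing particular to this list or those that follow is read from such small counts. Dst, which links basal keratin filaments to hemidesmosomes, rose from 448 ± 22.4 to 820 ± 162 CPM (log2 fold change 0.87, adjusted p 0.00773). Evpl, a precursor of the cornified envelope, rose by 0.92 (adjusted p 0.0107) and Itgb4, the hemidesmosomal integrin chain, by 0.73 (adjusted p 0.0436). Dsc3, the basal desmocollin, fell by 0.51 (adjusted p 0.0172), while Pkp2, with the largest fold change, stood at 1.0 (SE 0.47, adjusted p 0.167) on less than 2 CPM in each embryo. Dsp, the most abundant of the list in WT molars, had 823 ± 68.4 CPM in WT and 806 ± 95.1 CPM in mutant molars and was not called. Of 17 epithelial transcription factors, none rose and 2 fell. Tfap2c fell by 1.40 (adjusted p 0.0117) and Tfap2a by 1.06 (adjusted p 0.0104), both by edgeR's test. Trp63, the master factor of stratified epithelia and the most abundant of the list, had 436 ± 27.4 CPM in WT and 505 ± 22.6 CPM in mutant molars (log2 fold change 0.21, adjusted p 0.0546). Outside the keratins, 2 of 10 tested intermediate filament genes rose, Synm (1.13, adjusted p 0.00914) and Nes (0.61, adjusted p 0.0334), and none fell. Des, of muscle, had the largest fold change of these, -1.95 (SE 0.64, adjusted p 0.0659), and was highest in J6 and J7, the embryos with the highest muscle gene sums. Vim, the filament protein of mesenchymal cells and the most abundant of these, had 845 ± 57.5 and 863 ± 78.4 CPM, and was not called.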

How the data were processed

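The lower molars of 4 WT and 4 K14Cre;Jagged1fl/fl embryos at E18.5 were profiled with unstranded poly(A) RNA-seq. Reads were trimmed with Trimmomatic and mapped by STAR on GRCm38, and the authors deposited raw counts per gene and embryo. The counting tool is GenomicRanges in the paper and featureCounts in the submitters' processing notes. The treatment of reads with several matches is not given in the sources used here.

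From these counts, the 17129 genes that reached 10 counts in 2 or more of the 4 embryos of a group were kept. Scaling was by TMM, and edgeR 4.0.16 (R 4.3.3) gave the quasi-likelihood test, with Benjamini-Hochberg adjustment over all of them. The script was tested on simulated data. Exact permutation tests used log2(CPM + 0.1) over 70 arrangements. Symbols, types and positions came from GENCODE M21, which held 42548 of 43629 identifiers. Keratins with a mean of at least 1 CPM in a group or an adjusted p under 0.05 were named. From the other lists whose calls are counted, the most abundant member, the smallest adjusted p and the largest fold change were named, and other genes of these lists were chosen after their values were seen. Alternatives were relative log expression, library size and TMM without the 20 most abundant genes, DESeq2 1.42.0, other count filters, enamel and epithelial scores as covariates and leaving out each embryo. A cornified epithelium covariate and leaving out J6 and K14J28 together were added after the data were seen. The keratins and all lists were chosen with earlier results of these data known. A gene of the list of epithelial transcription factors is not reported here.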

Additional observations from a re-analysis of the deposited data

Results flagged for a closer look

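In 66 sets of 4 embryos (the CPM of each named keratin and the class sums, in each group), 19 had a lowest or highest embryo far from the other 3 by Dixon's criterion, which chance alone meets in about 1 of 20 sets. The sets are not independent, since 10 of the 19 were the same embryo, K14J28, and 5 were J6.

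K14J28 stood above the other mutants in Krt13 (397 CPM, next 27.9), Krt4 (252, next 14.7), Krt6a (221, next 53.0), Krt16 (26.1, next 4.89), Krt6b (23.9, next 1.56), Krt76 (19, next 0.194), Krt23 (14.2, next 1.55), Krt24 (13.2, next 2.11) and Krt78 (9.98, next 0.621), and in the sum of the suprabasal class (991 CPM, the others at most 125). Among the WT embryos J6 stood above the others in Krt24 (3.68 CPM, next 0.783), Krt16 (3.32, next 1.28), Krt23 (3.06, next 0.997) and Krt78 (1.40, next 0.222), and below them in Krt75 (19.3, next 23.1). The summed cornified epithelium list was 258 CPM in K14J28 and 107 CPM in J6, the highest of each group. It was 141 CPM in K14J26, and its part was not tested beyond the covariate.

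K14J26 had 2.5 CPM of Krt73, where the next mutant had 0.555. K14J30 had 10.3 CPM of Krt8, below 11.2. J5 had 0 CPM of Krt76, where the other WT embryos had 2 or 3 counts each, and 35.6 CPM over the hair class, against 33.0 in the next embryo.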

How the results depend on the processing

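Over 18 alternatives, 499 fits of 28 named keratins gave 419 values of the same direction and side of the threshold as reported, 5 of the same direction for which DESeq2 gave no adjusted p (Krt13, Krt23, Krt4, Krt6b and Krt78), 26 that lost and 16 that gained a call, and 33 of the opposite sign. Every value that lost a call kept its direction. No paired analysis was possible because the embryos of the 2 groups share no replicate numbers.

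The number of keratins that rose by adjusted p (5) was 2 with the enamel score as a covariate (Krt80 of the 5, and Krt6b, not called in the fit without it), 4 by library size alone (without Krt222), 0 with the epithelial score, 7 with DESeq2 and 7 with the cornified epithelium score (Krt5 and Krt16 added in both), 7 without J6 and K14J28 together (Krt5 and Krt82 added) and 1 to 7 over the fits without 1 embryo. The number that fell (1) was 0 with the enamel score and 0 with the epithelial score, 2 with DESeq2 (Krt28 added), 2 with the stricter count filter (Krt36), 2 with the cornified epithelium score (Krt36), and 1 to 2 without 1 embryo. By the unadjusted criteria, the number higher (8) was 13 with the epithelial score, 11 with the enamel score, 11 without a count filter and 5 to 13 without 1 embryo. Called genes over all tested were 1.74% with the enamel, 0.0117% with the epithelial and 28.2% with the cornified epithelium score, 23.1% with DESeq2, 3112 of 16845 without J6 and K14J28 together, 2.48% to 25.5% without 1 embryo, and 16.1% as reported.

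Changes of sign fell on keratins without a call. With the enamel score they were Krt10 (0.12), Krt17 (-0.05), Krt19 (0.19), Krt42 (-0.56), Krt75 (0.23) and Krt82 (-0.17), and with the epithelial score Krt10 (0.10), Krt19 (0.07) and Krt75 (0.17). With the cornified epithelium score they were Krt13 (-0.09), Krt23 (-0.23), Krt78 (-0.56) and Krt79 (-0.20). Library size alone turned Krt17 (-0.10) and Krt79 (-0.04), TMM without the 20 most abundant genes Krt17 (-0.0005) and the stricter filter Krt17 (-0.004). Without 1 embryo, values ran from -0.13 to 0.13 for Krt10, -0.74 to 3.15 for Krt13, -0.19 to 1.47 for Krt15, -0.03 to 0.05 for Krt17, -0.58 to 2.29 for Krt23, -0.51 to 3.46 for Krt4, -0.18 to 0.29 for Krt42, -0.23 to 0.03 for Krt75 and -0.31 to 0.34 for Krt79. The cause of these changes was not tested.

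Krt36, a low hair keratin, had 12 to 27 counts per embryo, and counting error and the spread between embryos were not separated. Krt78 could not be fitted under the stricter filter, without K14J28, without K14J30 or without J6 and K14J28 together, nor Krt6b under the stricter filter.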
